A study of Mus musculus with 12 samples.

Results

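Proestrus and estrus, the stages of the mouse estrous cycle around the estrogen peak and ovulation, were compared with metestrus and diestrus, the stages that follow, in the whole uterus. Samples were grouped by their estrous cycle stage label. One group held 6 uteri (proestrus 1, 2 and 3 and estrus 3, 4 and 5) and the other held 6 (metestrus 5, 6 and 7 and diestrus 3, 4 and 5), which together are all 12 samples of the series. All 12 came from wild-type Swiss Webster females, an outbred stock, of 8 to 12 weeks of age, and the labels name no treatment. No label says how a female was staged, and whether each library is a separate animal is not stated in so many words, so p-values measure the spread between these samples. PolyA RNA was read with 3' TagSeq, which sequences near the 3' end of each transcript, and values are given as CPM, counts relative to the total of the library after scaling with TMM factors, which correct for library composition.

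In the cycling uterus, estrogen from growing follicles acts through the receptor ESR1 on epithelium and stroma, and makes the epithelium swell, secrete and divide. After ovulation the corpora lutea release progesterone, which acts through the receptor PGR. PGR in the epithelium raises Indian hedgehog (Ihh), whose signal is read by stromal cells through Ptch1 and Gli1. In RNA from a whole organ, fewer cells of a type and less RNA per cell cannot be told apart.

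Totals ran from 1652841 to 2200563 estimated counts per library. Metestrus was the most uneven stage. Metestrus 5 lay nearest to the estrus level for several secreted epithelial products, among them Lcn2 at 969 CPM against 10.3 to 166 CPM in the other 5 metestrus and diestrus libraries. Metestrus 7 held the highest summed level of the 12 uterine gland genes listed, 969 CPM, and the highest summed level of 45 cytosolic ribosomal protein genes, 85946 CPM. Among called genes whose difference moved by over 1.5-fold when 1 library was left out, metestrus 5 moved it most in 33 and metestrus 7 in 27, against at most 14 for any other library.

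A gene was called when the mean log2 level of proestrus and estrus differed from that of metestrus and diestrus at an adjusted p under 0.05 (edgeR quasi-likelihood test, Benjamini-Hochberg over 12052 genes). Of the 12052 genes, 1685 (14%) were called, 951 (7.89%) higher in proestrus and estrus and 734 (6.09%) lower. In 1446 of them (12% of all genes) the fitted difference had 1 sign in all 4 pairs of a stage of one group with a stage of the other. These 1446 genes, 835 higher (6.93%) and 611 lower (5.07%), are the ones described first. The same sign was seen in all 4 pairs for 4744 genes (39.4%) when calls were not asked for, and only 121 of the 1446 were also called in each of the 4 pairs taken alone.

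Differences among the higher genes were larger than among the lower ones. Of the 835 higher genes, 373 differed by at least 2-fold and 125 by at least 4-fold, with a median log2 difference of 0.92. Of the 611 lower genes, 224 and 59 did so, with a median of -0.79. All 6 proestrus and estrus libraries lay above all 6 others for 330 genes (2.74% of those tested), and all below for 162 (1.34%), 492 in either direction (4.08%). Leaving out a library can only keep or raise such numbers. They rose most without metestrus 5, to 505 and 330. The split between the groups held 34.4% of the squared distance between samples over the 500 most variable genes, the split between estrus and proestrus 20.8%, that between diestrus and metestrus 8.08%, and differences within stages 36.7%.

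The higher genes had their peak in estrus more often than in proestrus, and their lowest level mostly in diestrus. By stage means, 571 of the 835 were highest in estrus and 264 in proestrus, and 676 were lowest in diestrus and 159 in metestrus. The 611 lower genes were mirrored only in part, with 478 highest in diestrus and 133 in metestrus, while their lowest stage was estrus for 336 and proestrus for 275. Estrus and proestrus differed from each other in 160 of the 835 higher genes (133 higher and 27 lower in estrus) and in 89 of the 611 lower genes (36 and 53), against 17.1% of all genes tested. Diestrus and metestrus differed in 7 higher and 10 lower genes, against 0.224% of all genes.

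**Figure D1:**
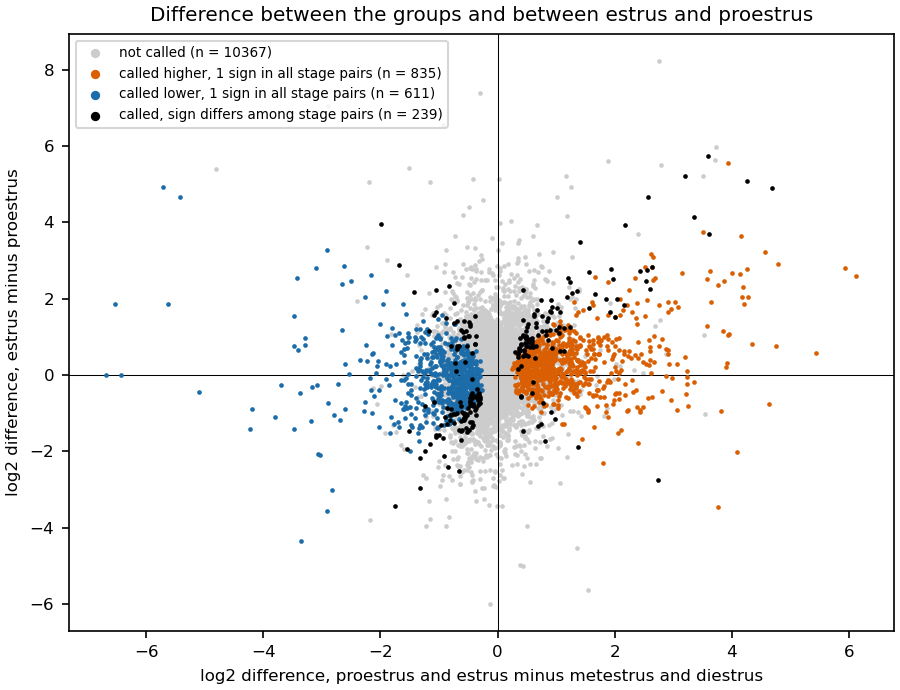
Each point is 1 of 12052 genes, with the log2 difference of proestrus and estrus minus metestrus and diestrus on the x axis and the log2 difference of estrus minus proestrus on the y axis. The 835 orange and 611 blue genes keep 1 sign over the 4 stage pairs, and the 239 black genes are called although a stage pair goes the other way.

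Padi1, which encodes a peptidylarginine deiminase that converts arginine residues of proteins to citrulline, had the smallest p of the higher genes. Its level was 101, 151 and 152 CPM in proestrus and 149, 112 and 206 CPM in estrus, against 33.5, 26.9 and 13.6 CPM in metestrus and 3.96, 4.42 and 2.81 CPM in diestrus. Every proestrus and estrus library lay above every other library, and diestrus was the lowest stage. The log2 difference was 3.90 ± 0.24 (SE, edgeR quasi-likelihood adjusted p = 1.47e-06), and estrus and proestrus did not differ by the test (log2 difference 0.21 ± 0.26, adjusted p = 0.62). Its neighbour on chromosome 4, Padi2, another peptidylarginine deiminase, ran from 48.3 to 141 CPM (median 106) in the first group and from 7.31 to 35.7 CPM (median 18.5) in the second (log2 difference 2.38 ± 0.26, adjusted p = 7.29e-05).

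Tmprss4, a membrane serine protease of epithelia, was 52.1, 58.9 and 47.9 CPM in proestrus and 100, 92 and 111 CPM in estrus, then 25.2, 23.2 and 34.9 CPM in metestrus and 11.4, 10.8 and 12.4 CPM in diestrus. The 2 groups did not overlap, and the steps from proestrus to estrus (adjusted p = 0.00194) and from metestrus to diestrus (adjusted p = 0.0194) were called as well. Golm1, a Golgi membrane protein, ran from 109 to 203 CPM (median 156) against 18.9 to 42 CPM (median 23.8), with a log2 difference of 2.48 ± 0.17 (adjusted p = 5.34e-06). Golm1 has 28.5% of its sequence in common with Naa35, so its counts are uncertain, and Tmprss4 overlaps BC049352 on the opposite strand. Ier3, an immediate early gene, had 39.6 to 51.4 CPM in proestrus and 163 to 265 CPM in estrus, against 25.1 to 42 CPM in metestrus and 10.1 to 13.4 CPM in diestrus. Its log2 difference was 2.25 ± 0.16 (adjusted p = 5.34e-06), but proestrus 2, at 39.6 CPM, lay under metestrus 7, at 42 CPM.

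Among the 12 largest differences, Aoc1, the diamine oxidase that breaks down histamine and polyamines, stood at 15.3, 26.8 and 14.1 CPM in proestrus and 98.3, 61.3 and 176 CPM in estrus. Its level was 12.4, 1.25 and 4.74 CPM in metestrus, and no count was seen in the 3 diestrus libraries, where 3 counts would be 1.48 to 1.69 CPM. The ratio of the group means was 21.4. The log2 difference was 6.12 ± 0.66 (edgeR adjusted p = 0.000152), and it averages log2 levels of stages. With no count in diestrus its size depends on the fit, and it ran from 4.39 to 6.65 over the alternatives. Arg1, arginase, which splits arginine to ornithine and urea, ran from 37.3 to 46 CPM in proestrus and from 215 to 381 CPM in estrus, and from 1.48 to 3.55 CPM in 5 of the 6 other libraries. Metestrus 5 held 33 CPM of Arg1, so the groups did not overlap but came close, and the log2 difference was 4.25 ± 0.44 (adjusted p = 4.88e-05) with it and 5.27 without it. Dhrs9, a retinol and steroid dehydrogenase, was 19.3 to 59.9 CPM (median 38.8) against 0.562 to 14.4 CPM (median 3.59), with a log2 difference of 3.26 ± 0.33 (adjusted p = 4.41e-05). Unlike Aoc1 and Arg1, Dhrs9 had its highest stage mean in proestrus.

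Also among the 12, Fcgbp, a mucus protein, was 215 to 254 CPM in proestrus and 481, 2182 and 1755 CPM in estrus, against 10.8 to 173 CPM in the other 6 libraries (log2 difference 3.16 ± 0.51, adjusted p = 0.00113). It shares 12.3% of its transcript sequence with 9530053A07Rik and is uncertain to that extent. Sprr1a, a cornified envelope precursor, ran from 11.3 to 40 CPM (median 17.3) against 0 to 8.24 CPM (median 1.15), and its log2 difference of 3.93 ± 0.49 (adjusted p = 0.000171) was 5.24 without diestrus 5. Sfn, stratifin, an adaptor protein of epithelial cells, kept within 32.7 to 39.8 CPM in proestrus and estrus. In metestrus and diestrus Sfn ran from 0.491 to 11.8 CPM (log2 difference 3.24 ± 0.32, adjusted p = 3.49e-05, or 3.88 without diestrus 5), with 26.7% of its sequence shared with Gm7850. Hgfac, the protease that activates hepatocyte growth factor, ran from 27.7 to 91 CPM against 1.47 to 16 CPM (log2 difference 3.85 ± 0.29, adjusted p = 6.06e-06).

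Of other genes among the 12, Slc16a14, a member of the monocarboxylate transporter family, ran from 18.1 to 122 CPM (median 56.9) against 1.47 to 11.9 CPM (median 3.18). Uox, urate oxidase, which overlaps Dnase2b on the opposite strand, ran from 4.53 to 67.3 CPM against 0 to 3.76 CPM. Chst8, a sulfotransferase that acts on N-acetylgalactosamine, ran from 11.9 to 33.2 CPM against 0.491 to 7.52 CPM, and its log2 difference of 3.24 became 3.83 without metestrus 6 and 3.87 without diestrus 3. In these 3 the groups did not overlap, which was a condition of the rule.

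**Figure D2:**
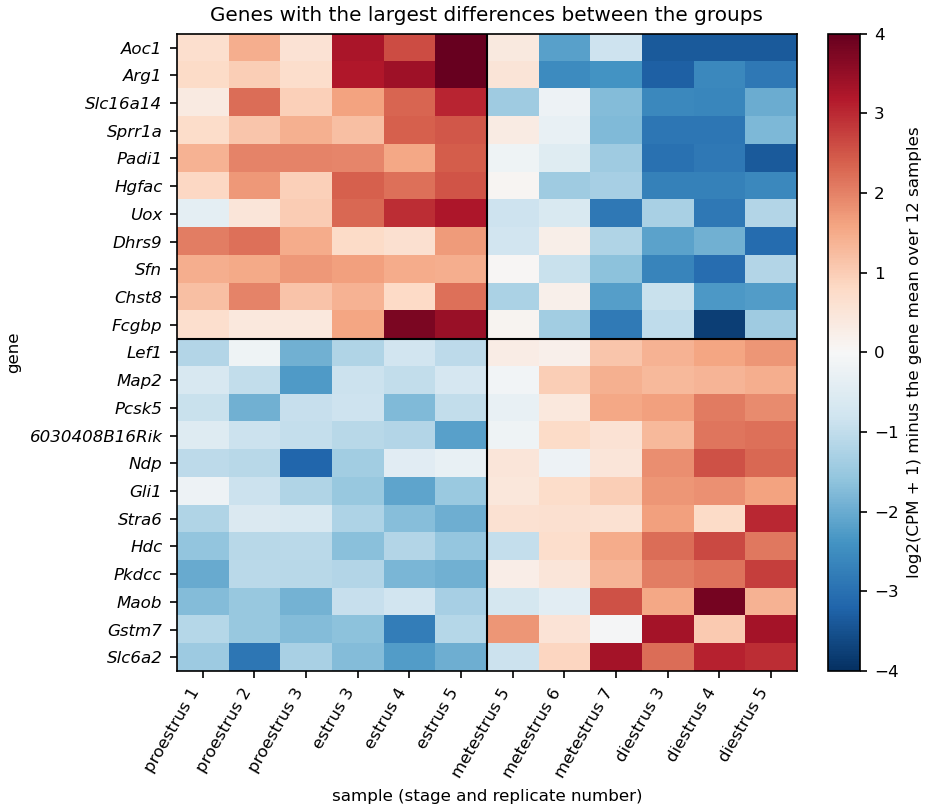
Rows are 11 higher and 12 lower genes among those with the largest differences, columns are the 12 samples, and colour is log2(CPM + 1) minus the mean of the gene. The vertical line parts proestrus and estrus from metestrus and diestrus, and the metestrus columns are paler than the diestrus columns for most genes.

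Transcripts of the hedgehog ligand, its receptor and its target were lower in proestrus and estrus, and signalling itself was not measured. Ihh, the epithelial ligand, was 0.566, 1.07 and 0.504 CPM in proestrus and 0.614, 0 and 0.455 CPM in estrus, all at or under the level of 3 counts. It was 3.6, 5.64 and 10.1 CPM in metestrus and 15.8, 14.2 and 21.9 CPM in diestrus, at least 7.33-fold higher than the level of 3 counts, averaged over the proestrus and estrus libraries (adjusted p = 5.38e-05). Gli1, the transcription factor that marks an active hedgehog signal, was 1.7 to 9.06 CPM (median 3.61) against 14.9 to 40.7 CPM (median 28.4). Its log2 difference was -2.69 ± 0.22 (adjusted p = 8.84e-06), with no overlap between the groups, and it overlaps Arhgap9 on the opposite strand. Ptch1, the hedgehog receptor and itself a target, was 9.97 ± 3.79 CPM against 45.7 ± 20.2 CPM (SD, n = 6 each, edgeR adjusted p = 0.000617). The groups did not overlap for Ptch1 either, and metestrus 7, at 71.6 CPM, was its highest library.

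The homeobox gene Hoxa10, which the uterine stroma needs to respond to progesterone, was 151, 141 and 154 CPM in proestrus and 102, 101 and 91 CPM in estrus, against 239, 226 and 393 CPM in metestrus and 324, 367 and 361 CPM in diestrus. Its log2 difference was -1.39 ± 0.13 (adjusted p = 2.19e-05), and estrus was also lower than proestrus (adjusted p = 0.0394). Hoxa11, which lies beside it on chromosome 6, was 21.8 ± 8.89 CPM against 71.5 ± 24.5 CPM (SD, n = 6 each, edgeR adjusted p = 0.000118). Sox17, a transcription factor of uterine epithelium and of endothelium, was 31.3 to 48.7 CPM (median 41.4) against 42.6 to 110 CPM (median 74.1). Sox17 differed from metestrus to diestrus as well (log2 difference 1.02, adjusted p = 0.0111), and metestrus 7, at 42.6 CPM, lay under all 3 proestrus values.

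Hdc, the enzyme that makes histamine, was 3.68 to 6.05 CPM in proestrus and estrus, 6.69, 23.2 and 40.8 CPM in metestrus and 69.8, 91.8 and 64.1 CPM in diestrus (log2 difference -3.08 ± 0.35, adjusted p = 9.31e-05). Aoc1, which degrades histamine, had its higher levels in the stages where Hdc had its lower ones. Hdc is also made by mast cells and granulocytes. Maob, a monoamine oxidase, was 5.54 to 13.1 CPM against 13.9, 16.9 and 141 CPM in metestrus and 68.8, 339 and 61.8 CPM in diestrus, and its log2 difference of -3.48 ± 0.65 (adjusted p = 0.00309) was -2.55 without metestrus 7 and -2.86 without diestrus 4. Slc6a2, the noradrenaline transporter, was 0 to 2.02 CPM against 3.09, 12.5 and 73.4 CPM in metestrus and 34.2, 61.3 and 56.2 CPM in diestrus. Its log2 difference was -5.10 ± 0.76 (adjusted p = 0.000593), or -4.14 without metestrus 7.

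Pkdcc, a secreted tyrosine kinase, was 6.8 to 13.9 CPM (median 10.4) against 36.6 to 213 CPM (median 105). Its log2 difference was -3.16 ± 0.25 (adjusted p = 7.67e-06), and diestrus was higher than metestrus (adjusted p = 0.0443). Osr2, an odd-skipped zinc finger factor, was 24.4 to 54.6 CPM against 81.4 to 148 CPM (log2 difference -1.65 ± 0.13, adjusted p = 6.06e-06). Rhob, a small GTPase, had the smallest p of the lower genes although its ratio of means was only 2.18. It was 70.8 to 87.4 CPM against 148 to 202 CPM, with little spread in any stage. Lef1, a transcription factor of WNT signalling, was 3.02 to 12.3 CPM against 16.3 to 50.6 CPM (log2 difference -2.18 ± 0.27, adjusted p = 0.000172). Ndp, which encodes norrin, a ligand of Frizzled 4, was 0 to 6.37 CPM against 6.89 to 51.5 CPM.

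The other genes named among the 12 lower ones had separate groups too, as the rule asked. Pcsk5, a proprotein convertase, was 9.1 to 20.3 CPM against 29.9 to 159 CPM, and Map2, a microtubule binding protein, was 3.53 to 13 CPM against 19.6 to 59 CPM. Gstm7, a glutathione S-transferase, was 1.7 to 7.36 CPM against 16.6 to 183 CPM, with diestrus 3 and diestrus 5 both at 183 CPM and diestrus 4 at 36.8 CPM. Stra6, the receptor for retinol binding protein, was 2.27 to 7.49 CPM against 18 to 101 CPM, and it overlaps Ccdc33 on the opposite strand. The uncharacterised gene 6030408B16Rik was 0.91 to 5.1 CPM against 6.69 to 38.8 CPM.

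Of 33 tested genes of a list of estrogen-responsive genes, 18 were higher in proestrus and estrus, 1 was lower and 14 were not called. The median log2 difference of the list was 1.38, against -0.02 over all genes. Of the 18 higher genes, 14 had 1 sign in all 4 stage pairs. The counts of 18 and 1 stand against 7.89% of all genes higher and 6.09% lower. This list and those below were chosen with earlier results of these data known, so their counts describe and test nothing. Counts of calls in the lists include genes whose stage pairs do not share a sign. Without metestrus 5 the list had 18 higher and 1 lower, without metestrus 7 it had 18 and 2, and without metestrus 6 it had 20 and 2. Muc1, a mucin of the luminal surface, was 56.9 to 116 CPM (median 92.3) against 7.36 to 37.6 CPM (median 17), with no overlap (log2 difference 2.28 ± 0.29, adjusted p = 0.000202). Muc4, another membrane mucin that overlaps Muc20, was 25.5 to 52.4 CPM in proestrus and 162 to 212 CPM in estrus, against 27.3 CPM in metestrus 5 and at most 8.77 CPM in the other 5 libraries. Sprr2g, a small proline-rich protein, was 24.2 to 62.8 CPM against 2.96 to 8.77 CPM (a ratio of means of 6.24, adjusted p = 3.49e-05). Sprr2g shares 3.07% of its sequence with Sprr2c-ps, and counts of the Sprr2 family may be split among its members.

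Lcn2, a secreted protein that binds bacterial siderophores, was 847 to 5054 CPM (median 2227) against 10.3 to 969 CPM (median 41). Its log2 difference was 4.28 ± 0.60 (adjusted p = 0.000364), and 5.24 without metestrus 5, the library at 969 CPM. Inhbb, which encodes a subunit of activin B, went the other way within the group, with 223 to 285 CPM in proestrus and 61.4 to 77.2 CPM in estrus, against 1.69 to 134 CPM in the other libraries. Its log2 difference of 2.40 ± 0.45 was 3.02 without metestrus 6 and 3.09 without diestrus 3. The 1 lower gene was Igf1, the growth factor, which was 309 to 574 CPM in proestrus and 82.3 to 117 CPM in estrus, against 193 to 734 CPM in metestrus and 552 to 745 CPM in diestrus. Proestrus overlapped metestrus for Igf1, and its sign was not the same in all 4 stage pairs.

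Of 25 tested genes of a list of progesterone-responsive genes, 18 were lower in proestrus and estrus, none was higher and 7 were not called. Over all genes 6.09% were lower and 7.89% higher. The median log2 difference of the list was -1.21, and 15 of the 18 had 1 sign in all 4 stage pairs. By unadjusted p under 0.05 the list had 22 lower and 0 higher, by DESeq2 17 and 0, and by limma-voom 12 and 0. With counts scaled from TPM 10 were lower, and with a minimum mean of 50 counts, which drops genes of low level, 11. Without metestrus 7 the lower count was 14 and the median -0.92, and without metestrus 5 they were 18 and -1.37. Beside Ihh, Gli1, Ptch1, Hoxa10, Hoxa11, Hdc and Sox17, the 18 included Hand2, a stromal transcription factor, at 57.6 ± 12.2 CPM against 116 ± 31.3 CPM (SD, n = 6 each, edgeR adjusted p = 0.00272). Fst, follistatin, which binds activin, was 3.12 ± 1.78 CPM against 42 ± 38.4 CPM (adjusted p = 0.00345), and its log2 difference of -3.80 was -2.85 without metestrus 7. Acod1, which makes itaconate, was 0.515, 0.627 and 36.7 CPM in metestrus, and its adjusted p of 0.0204 was 0.243 without metestrus 7. Il13ra2, a decoy receptor for interleukin 13, lost its call in the same way (adjusted p = 0.0156, or 0.17 without metestrus 7).

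**Figure D3:**
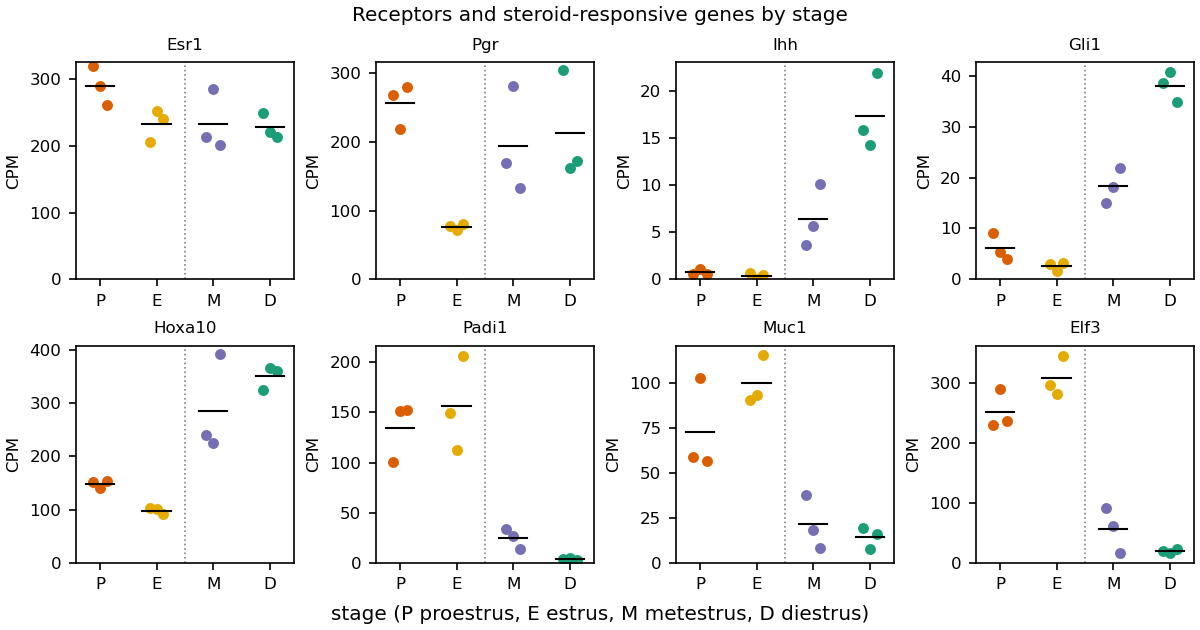
Dots are the 12 samples by stage (P, E, M and D) and short lines are stage means of 3, in CPM, for the receptors Esr1 and Pgr and 6 genes described in the text. Ihh, Gli1 and Hoxa10 lie higher in M and D, Padi1, Muc1 and Elf3 lie higher in P and E, and Esr1 and Pgr overlap between the groups.

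The receptors Esr1 and Pgr were not called between the groups. Esr1 was 206 to 320 CPM (median 257) against 201 to 286 CPM (median 217), with a log2 difference of 0.17 ± 0.11 (adjusted p = 0.343). Pgr was 219 to 280 CPM in proestrus and 71 to 80.5 CPM in estrus, against 133 to 304 CPM in the other 6 libraries, with a log2 difference of -0.54 ± 0.19 (adjusted p = 0.0774). The step from proestrus to estrus was called for Pgr (log2 difference -1.75 ± 0.28, adjusted p = 0.00154). Of 19 tested steroid receptors, cofactors and steroid dehydrogenases, 4 were higher and 3 lower, against 7.89% and 6.09% of all genes. The lower count was 5 without metestrus 7 and 1 without proestrus 1, estrus 5, diestrus 3 or diestrus 5.

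Those described here are cofactors, chaperones and enzymes. Nrip1, a corepressor that estrogen receptors bind, was 134 to 215 CPM against 87.7 to 126 CPM, with no overlap (log2 difference 0.68 ± 0.13, adjusted p = 0.00264). Hsd17b11 was 115 to 181 CPM against 41.6 to 134 CPM (adjusted p = 0.00047). Hsd17b2, which oxidises estradiol to estrone, was 11.7 to 22.7 CPM in estrus, 0 to 4.28 CPM in proestrus and 0 to 2.06 CPM in the other 6 libraries (log2 difference 4.57 ± 0.91, adjusted p = 0.00631, with 3.95 without proestrus 2 and 5.29 without metestrus 5). Fkbp4, a cochaperone of the progesterone receptor, was lower in estrus, at 90.8 to 140 CPM, than in proestrus, at 208 to 217 CPM, against 189 to 265 CPM in the other libraries (adjusted p = 0.00986). Ncoa3 was also higher, and Hsp90aa1 was also lower.

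Epithelial keratin and junction genes had the highest share of calls of any list with at least 5 tested genes. Of 27 tested, 20 were higher in proestrus and estrus, all with 1 sign in the 4 stage pairs, and none was lower by edgeR (also 0 by unadjusted p under 0.05, by DESeq2 and by limma-voom), with a median log2 difference of 1.17. In 14 of them the groups did not overlap, against 2.74% of all genes. The 20 higher genes stand against 7.89% of all genes, and without metestrus 5 or without metestrus 7 the count was 19. Elf3, an epithelial transcription factor, was 230 to 346 CPM (median 286) against 16 to 91.1 CPM (median 21.5), a log2 difference of 3.06 ± 0.28 (adjusted p = 2.16e-05). Krt7, a keratin of simple epithelia, was 401, 659 and 484 CPM in proestrus and 204 to 362 CPM in estrus, against 26.5 to 162 CPM. St14, matriptase, a membrane protease, was 43.8 to 92.3 CPM against 13.7 to 39.1 CPM, and Cdh1, E-cadherin, was 83.8 to 140 CPM against 35.5 to 60.8 CPM (adjusted p = 0.000133).

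The size of the difference varied widely inside that list. Krt8 was 365 ± 42.4 CPM against 167 ± 68 CPM and Epcam, an epithelial adhesion protein, was 390 ± 49.4 CPM against 181 ± 62.9 CPM (SD, n = 6 each, edgeR adjusted p = 0.00216 and 0.00106). Krt18, the partner of Krt8, differed less, with 190 ± 27.8 CPM against 140 ± 37.8 CPM (log2 difference 0.47 ± 0.11, adjusted p = 0.0147). The summed level of 8 epithelial markers (among them Cdh1, Epcam, Krt8, Krt18, Krt19, Foxa2 and Cxcl15) had a range of 1197 to 1588 CPM in the first group and of 479 to 989 CPM in the second, with 6 of the 8 higher and 2 lower. It moved with the estrogen-responsive, keratin and junction, ion transport and secreted defence genes, and its part in their differences was not tested.

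The 2 lower epithelial markers were both gland genes. Cxcl15, a chemokine made in uterine glands, was 0 CPM in proestrus and 0.455 to 3.07 CPM in estrus, against 2.96 to 14.4 CPM in metestrus and 17.4 to 41.6 CPM in diestrus (log2 difference -5.42 ± 0.76, adjusted p = 0.000712). Foxa2, a transcription factor of gland cells, was 2.98 ± 1.81 CPM against 8.59 ± 3.78 CPM (SD, n = 6 each, edgeR adjusted p = 0.0243), and 4 of the 12 leave-one-out fits did not call it (highest adjusted p = 0.0632, without estrus 5). Of 6 tested gland genes, 3 were lower and 1 higher, against 6.09% and 7.89% of all genes. The lower count was 1 without estrus 4 or estrus 5. The third lower one, Lgr5, was not called in 10 such fits, up to an adjusted p of 0.157 without diestrus 5.

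**Figure D4:**
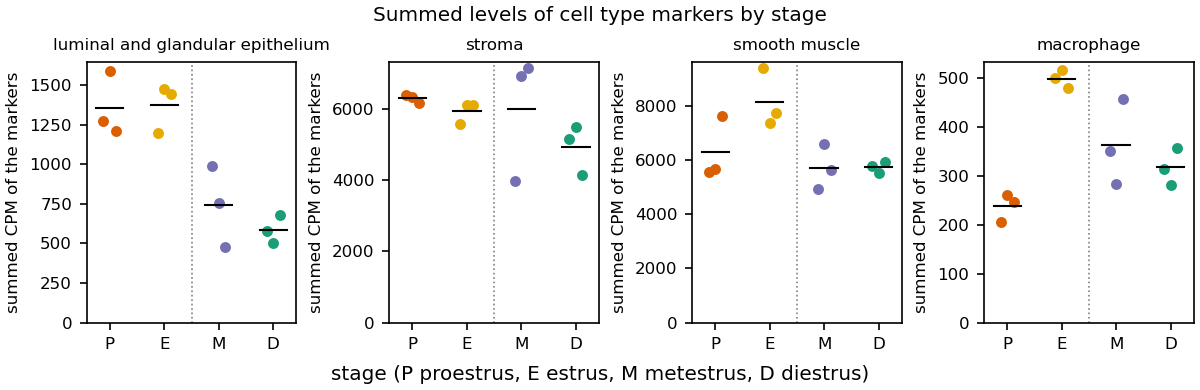
Dots are the 12 samples by stage and short lines are means of 3, for the summed CPM of 8 epithelial, 6 stromal, 5 smooth muscle and 6 macrophage markers. Only for the epithelial markers do all 6 proestrus and estrus samples lie above all 6 others among these 4 cell types.

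For the other cell types the marker sums overlapped. Stromal markers summed to 5561 to 6369 CPM against 3961 to 7138 CPM (3 of 6 lower), smooth muscle markers to 5546 to 9385 CPM against 4924 to 6593 CPM (1 of 5 higher), and macrophage markers to 204 to 516 CPM against 280 to 456 CPM (1 of 6 higher). None of 4 endothelial markers was called by edgeR. Neutrophil markers summed to 8.56 to 75 CPM against 8.88 to 65.2 CPM, with none of 4 tested called, and the eosinophil peroxidase gene Epx had no count in any of the 12 libraries. Markers of squamous epithelium of cervix and vagina summed to at most 3.4 CPM, with Krt6a at 0 in all 12 libraries. Markers of the ovary summed to 8.64 to 19.8 CPM against 10.4 to 25.1 CPM, mostly Star, with Zp3 at 0 throughout. Oviduct markers summed to 10.2 to 49.7 CPM against 6.87 to 30.2 CPM, mostly Ovgp1. Skeletal muscle markers summed to 47.1 to 111 CPM against 27.8 to 149 CPM, mostly Acta1, with Myh4 at 0 throughout. These sums overlapped between the groups, and their part in the results was not tested.

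**Figure D5:**
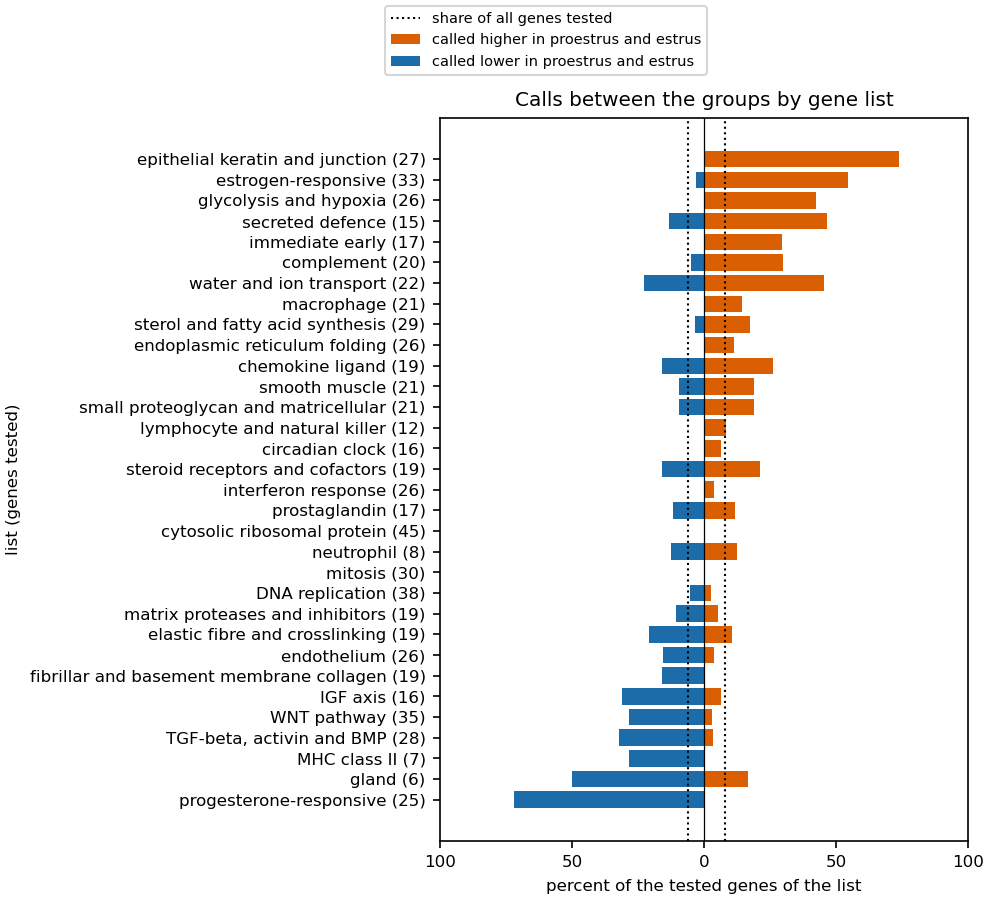
Bars give, for each list with at least 5 tested genes (number in parentheses), the percent called higher (right) and lower (left) in proestrus and estrus, and dotted lines mark 7.89% and 6.09%, the shares over all genes tested. The keratin and junction list (20 of 27 higher) and the progesterone-responsive list (18 of 25 lower) stand at the ends.

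Water and ion transport genes were called in both directions, with 10 of 22 higher and 5 lower, or 8 and 2 with 2 groups of 6. Over all genes 7.89% were higher and 6.09% lower. All 4 stage pairs shared a sign in 8 of the 10 and in 4 of the 5. Trpv6, an epithelial calcium channel, was 35.8 to 61 CPM in proestrus and 211 to 286 CPM in estrus, against 16.3 to 43.2 CPM in metestrus and 0 to 2.81 CPM in diestrus (log2 difference 3.76 ± 0.31, adjusted p = 8.84e-06). Car2, carbonic anhydrase, was 605 to 1482 CPM against 45 to 340 CPM, with no overlap. Ano1, a calcium-activated chloride channel, ran opposite to these, at 60.5 to 130 CPM against 169 to 343 CPM, also with no overlap (log2 difference -1.55 ± 0.15, adjusted p = 2.25e-05). Fxyd3, a regulator of the sodium pump, was 262 to 553 CPM against 80.9 to 328 CPM, with 41% of its sequence shared with Lgi4. S100g, an intracellular calcium binding protein, was lower (log2 difference -2.49, adjusted p = 0.0426), but it held 1285 CPM in metestrus 7 and its log2 difference was -0.89 (adjusted p = 0.198) without that library.

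Secreted defence genes were higher in 7 of 15 and lower in 2, and complement genes higher in 6 of 20 and lower in 1. Over all genes 7.89% were higher and 6.09% lower. All 4 stage pairs shared a sign in 5 and 2 of these defence genes, and in 2 and 1 of these complement genes. With 2 groups of 6, 1 complement gene was higher, and without metestrus 6, 3 were lower. Pigr, which carries immunoglobulin A across epithelium, was 96.2 to 177 CPM in proestrus and 840 to 1057 CPM in estrus, against 35.3 to 252 CPM, so that proestrus overlapped metestrus. C3, the central complement component, behaved in the same way, with 2670 to 4320 CPM in estrus and 407 to 1194 CPM in proestrus, against 1880 CPM in metestrus 5 and 64.3 to 220 CPM in the other 5 libraries. The ratio of means for C3 was 5.1 (adjusted p = 0.00501), and its log2 difference was 3.60 without metestrus 5. Cd55, which shields cells from complement, was 67 to 125 CPM against 29.7 to 71 CPM, and shares 11.4% of its sequence with Cd55b. Of 19 chemokine ligand genes, 5 were higher and 3 lower. Without estrus 4, 3 were higher, without metestrus 5, 5 were lower, and without proestrus 2, proestrus 3, estrus 5 or diestrus 3, 1 was lower. Ccl11, which attracts eosinophils, was 13.6 to 38.3 CPM against 3.93 to 15 CPM, and Cxcl17 was 40.8 to 339 CPM against 7.85 to 87 CPM.

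Other immune lists are read against 7.89% of all genes higher and 6.09% lower. Of 21 macrophage genes, 3 were higher (5 without metestrus 5, and 2 higher with 4 lower without metestrus 6), among them Cd14, a receptor for bacterial lipopolysaccharide, which stood apart in estrus only (91.5 to 145 CPM, against 18.1 to 23.5 CPM in proestrus and 13.2 to 27.3 CPM in the rest). Interferon response genes were called in 1 of 26, or 3 without metestrus 7 and 0 in 7 of the other leave-one-out fits, and lymphocyte and natural killer genes in 1 of 12. Of 7 MHC class II genes, which present antigen, H2-Aa and H2-Eb1 were lower, and 4 were lower without estrus 4 or metestrus 6. H2-Aa was 60.5 to 162 CPM against 137 to 253 CPM, and H2-Eb1 was 56.7 to 199 CPM against 173 to 357 CPM. The medians of these lists are given only as descriptions, and MHC class II had a median log2 difference of -0.58.

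WNT and TGF-beta family genes held more lower than higher calls, while over all genes 6.09% were lower and 7.89% higher. Of 35 tested WNT pathway genes, 10 were lower and 1 higher, and of 28 TGF-beta, activin and BMP genes 9 were lower and 1 higher. Their median log2 differences were -0.10 and -0.29, against -0.02 over all genes. Leaving out 1 library gave 5 to 9 lower WNT genes (5 without estrus 3, 6 without proestrus 1 or 3) and 1 to 3 higher (3 without metestrus 6). With 2 groups of 6 the lower counts of the WNT and TGF-beta lists were 5 and 6, and with a minimum mean of 50 counts 6 and 5. With counts scaled from TPM the WNT list had 5 lower and a median of 0.02, on the other side of 0. Sfrp1, a secreted WNT antagonist, was 17.1 to 26.2 CPM against 37.6 to 77 CPM, with no overlap (log2 difference -1.23 ± 0.19, adjusted p = 0.000668). Its relative Sfrp2 was 8.56 to 19.8 CPM in proestrus and 50.5 to 56.8 CPM in estrus, against 41.4 to 107 CPM. Fzd1, a WNT receptor, was 13.9 to 27.3 CPM against 29.5 to 49.7 CPM. Gdf10, a BMP family ligand, was 19.7 to 41.2 CPM against 51.4 to 120 CPM (log2 difference -1.20 ± 0.17, adjusted p = 0.00047), and Id3, a target of BMP signals, was 32.1 to 52.8 CPM against 60.2 to 95.9 CPM. In both the groups did not overlap.

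The insulin-like growth factor list had 5 lower and 1 higher of 16, where 6.09% of all genes were lower and 7.89% higher. Of the 5 lower genes, 3 had 1 sign in all 4 stage pairs. The lower count was 2 without proestrus 2 or proestrus 3, 3 without proestrus 1, estrus 5 or any 1 diestrus library, and 2 with counts scaled from TPM. Igfbp4, a binding protein, was 531 to 1066 CPM against 977 to 2190 CPM, and Stc2, stanniocalcin 2, was the higher one, at 28.7 to 64.7 CPM against 9.4 to 22.1 CPM (log2 difference 1.63 ± 0.15, adjusted p = 2.16e-05). Of 26 glycolysis and hypoxia genes, 11 were higher and none lower by edgeR (0 lower also by unadjusted p under 0.05, by DESeq2 and by limma-voom), with a median log2 difference of 0.40. All 4 stage pairs shared a sign in 8 of the 11. With 2 groups of 6 in place of 4 stages, 6 glycolysis and hypoxia genes were higher. Ldha, lactate dehydrogenase, was 229 ± 20.1 CPM against 151 ± 29.6 CPM and Gapdh was 829 ± 85.6 CPM against 648 ± 44.9 CPM (SD, n = 6 each, edgeR adjusted p = 0.00864 and 0.0127), both with no overlap. Hk2, hexokinase, was 20.9 to 31.7 CPM in proestrus and 76.4 to 101 CPM in estrus, against 12.4 to 24.2 CPM. Egln3, an oxygen-sensing hydroxylase, was 11.3 to 23.5 CPM in proestrus and 136 to 176 CPM in estrus, against 34 CPM in metestrus 5 and 2.96 to 7.52 CPM in the other 5 libraries. Its log2 difference of 2.65 was 3.43 without metestrus 5.

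The next lists are read against 7.89% of all genes higher and 6.09% lower. Of 29 sterol and fatty acid synthesis genes, 5 were higher and 1 lower, with 3 higher in 7 of the 12 leave-one-out fits. Immediate early genes were higher in 5 of 17, and 2 were lower without metestrus 6. Klf4, a zinc finger factor, was 322 to 508 CPM in proestrus and 182 to 287 CPM in estrus, against 73.1 to 189 CPM, and Fosl2, a subunit of AP-1, was 57.8 to 119 CPM against 25.8 to 61.6 CPM. In the circadian clock list 1 of 16 genes was called (3 more were lower without metestrus 6), Bhlhe40, a repressor that also answers to other signals, at 66.3 to 141 CPM against 5.92 to 47.9 CPM.

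Cell division genes did not separate the groups. Over all genes 7.89% were higher and 6.09% lower. None of 30 mitosis genes was called by edgeR, DESeq2 or limma-voom (1 lower and 0 higher by edgeR's unadjusted p under 0.05), with a median log2 difference of -0.31, and of 38 DNA replication genes 1 was higher and 2 were lower. Without metestrus 5, 2 mitosis and 4 replication genes were lower, and without metestrus 6 the median of the mitosis list was 0.29, on the other side of 0. Top2a, topoisomerase II, which untangles replicated DNA, was 105 to 181 CPM in proestrus, 23.8 to 29.6 CPM in estrus, 11.8 to 170 CPM in metestrus and 78.2 to 110 CPM in diestrus. The 30 mitosis genes together summed to 227 to 286 CPM in estrus, 649 to 1184 CPM in proestrus and 602 to 645 CPM in diestrus, so that estrus lay apart from proestrus and the groups overlapped. In metestrus it spanned 126 CPM in metestrus 5 to 1152 CPM in metestrus 6. Cdc45, a helicase component, was the higher replication gene (32.1 to 107 CPM against 18.5 to 33 CPM), and 6.59% of its sequence is shared with Ufd1.

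Matrix and muscle lists are read against 14% called over all genes. Of 19 collagen genes 3 were lower, led by Col18a1 of basement membranes, at 96.7 to 130 CPM against 132 to 236 CPM with no overlap (log2 difference -0.79 ± 0.13, adjusted p = 0.000996). Without metestrus 5, 6 collagen genes were lower, and without estrus 5 or without diestrus 4 the 1 lower gene was Col18a1. Col11a1 and Col14a1 were not called in 2 and 10 of the 12 leave-one-out fits. Of 19 elastic fibre and crosslinking genes 2 were higher and 4 lower (7 without metestrus 5, 2 without proestrus 2 or estrus 5), and Lox, which crosslinks collagen and elastin, was 83.5 to 195 CPM against 34.4 to 109 CPM. Among 19 matrix proteases and inhibitors 1 was higher and 2 lower (4 and 4 without metestrus 5), and Plat, tissue plasminogen activator, was 27.3 to 46.4 CPM against 37.3 to 151 CPM. Tnc, tenascin C, was 2.52 to 6.25 CPM against 2.96 to 37.7 CPM. Of 21 smooth muscle genes 4 were higher and 2 lower, with 0 or 1 lower in 9 of the 12 leave-one-out fits and 6 higher without metestrus 6. Oxtr, the oxytocin receptor of the myometrium, was 39.1 to 97.2 CPM in proestrus and 25.2 to 27.7 CPM in estrus, against 4.5 to 30.7 CPM (log2 difference 1.65 ± 0.26, adjusted p = 0.00093).

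For the lists that follow, the shares over all genes were 7.89% higher and 6.09% lower. Of 26 endothelial genes 4 were lower and 1 higher. The lower count was 10 without metestrus 5 and 2 without proestrus 2, proestrus 3, estrus 3, metestrus 7 or diestrus 4. Of 17 prostaglandin genes 2 were lower and 2 higher. All 4 stage pairs shared a sign in the 2 lower ones and in 0 of the 2 higher ones. Ptgfr, the receptor for prostaglandin F2 alpha, was 2.73 to 9.83 CPM against 12.4 to 39.3 CPM, with no overlap (adjusted p = 0.00221). Ptgs2, the inducible cyclooxygenase, was 27.7 to 65.3 CPM in estrus and at most 1.98 CPM in the other 9 libraries, and its call was lost without proestrus 3 (adjusted p = 0.0519). Of 26 endoplasmic reticulum folding genes 3 were higher, with 7 without metestrus 7 and 1 in 6 other leave-one-out fits. None of 45 cytosolic ribosomal protein genes was called by edgeR, DESeq2 or limma-voom (1 higher and 2 lower by edgeR's unadjusted p under 0.05), and 1 was lower without metestrus 5 or diestrus 5. Small proteoglycan and matricellular genes had 4 higher and 2 lower of 21 (4 lower without metestrus 5), and neutrophil genes 1 higher (Lcn2) and 1 lower (Hdc) of 8. The ovary, fat, red blood cell and skeletal muscle lists held 2 to 4 tested genes each with no call by edgeR, DESeq2, limma-voom or unadjusted p under 0.05, the squamous list 1 higher of 3, and the oviduct cilia list 1 lower of 3.

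For 239 called genes the 4 stage pairs did not share a sign, 116 of them higher and 123 lower. In 167 of the 239 only the pair of proestrus and metestrus went the other way. The 2 stages of a group differed by the test in 234 of the 239, and in 13.7% of all genes. The 239 were chosen by unlike signs, which need a difference between stages of a group, so these shares cannot be compared. Ctsl, cathepsin L, was 350 to 500 CPM in proestrus, 1409 to 2109 CPM in estrus, 276 to 604 CPM in metestrus and 260 to 264 CPM in diestrus (log2 difference of the groups 1.36 ± 0.18, adjusted p = 0.000224). Its log2 difference between estrus and proestrus was 2.19 ± 0.25. Pla1a, a phospholipase, and Ero1l, an oxidase of the endoplasmic reticulum, had the same form, with 57.3 to 67.6 CPM and 81 to 118 CPM in estrus and at most 16.6 CPM and 23.5 CPM in the other stages.

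The 3 lower genes of this kind with the smallest p were highest in diestrus. Ctsd, cathepsin D, was 136 to 197 CPM in proestrus, 341 to 384 CPM in estrus, 290 to 447 CPM in metestrus and 699 to 1094 CPM in diestrus (log2 difference -1.16 ± 0.15, adjusted p = 0.000184), and it shares 33.2% of its sequence with Gm49369. Slc25a48, a mitochondrial carrier, was 43.9 to 48.1 CPM in proestrus, 12.5 to 21.4 CPM in estrus, 24.9 to 80.8 CPM in metestrus and 112 to 163 CPM in diestrus. Oaf was 67.5 to 78.1 CPM in proestrus and 22.7 to 26.4 CPM in estrus, against 51.5 to 128 CPM in the other libraries. For these genes the contrast of the groups averages stages that differ, so the values are given by stage.

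Promoters of the genes with 1 sign were searched on both strands for 2 palindromic elements. One is the estrogen receptor element, GGTCA and TGACC with 3 bases of any kind between them. The other, bound by progesterone and glucocorticoid receptors, is GNACA and TGTNC with 3 bases between them. The RefSeq table of mouse promoters (GRCm38.p6) holds 300 bases for each start, 250 before and 50 after, and matched 628 of the 835 higher and 459 of the 611 lower genes by symbol. The estrogen element was in 0 of 838 promoters of the higher genes and 0 of 615 of the lower genes, against 1 of 11908 in promoters of all genes tested and 23 of 32851 (0.07%) in the whole table. The other element was in 3 of 838 (0.358%) and in 2 of 615 (0.325%), against 38 of 11908 (0.319%) for all genes tested and 156 of 32851 (0.475%) in the whole table. No match says only that these letters are not in that window. The 2 higher genes with a match whose groups did not overlap were Epcam and Fyb2, and the bases around the match are printed 5′ to 3′ on the plus strand, with the element in capitals, to show where it lies.
Epcam, chr17:87635890-87635942: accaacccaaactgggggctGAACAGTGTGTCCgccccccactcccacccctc
Fyb2, chr4:104913311-104913346: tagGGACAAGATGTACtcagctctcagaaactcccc
The element begins 69 bases before the start of Epcam and 247 bases before that of Fyb2, an adaptor protein gene at 22.3 ± 5.64 CPM against 5.09 ± 5.07 CPM (SD, n = 6 each, edgeR log2 difference 2.30, adjusted p = 0.00157). Both are higher in proestrus and estrus. Map7d2, a lower gene with a match, also had groups that did not overlap (edgeR log2 difference -1.64, adjusted p = 0.00953). Its bases are not printed. The match is a description of the letters and not of binding.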

How the data were processed

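3' TagSeq libraries of 12 uteri were analysed, each deposited as a table of transcripts. Per the file headers, the authors deposited estimated counts, which were not scaled, and TPM values. Kallisto, DESeq2 and FastQC are named in the submitters' processing notes, and the transcript set, build and use of strand are not given in the sources used here. Of 119414 transcripts, 116640 (97.7%) matched GENCODE M21 (GRCm38). Estimated counts were summed over 35896 genes and rounded. edgeR 4.0.16 (R 4.3.3) filterByExpr by stage left 12052 genes, which were fitted with TMM factors, 1 coefficient per stage and the quasi-likelihood test of the mean of proestrus and estrus minus the mean of metestrus and diestrus (biological coefficient of variation 20.6%). Squared distances and correlations between samples used log2 CPM with a prior count of 2. Log2 differences came from the edgeR fit, for which that prior count was not set. The code was tested on simulated data. The limit that a count of 0 allows was taken as 3 counts, which covers counting error only, since no molecular identifiers are described.

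Named genes were, per direction, the 12 largest differences among genes with 1 sign, no overlap and a mean of at least 20 CPM in the higher group; the 4 smallest p; per list the up to 4 smallest p; the 3 smallest p of each direction without 1 sign; and the receptors Esr1 and Pgr. Some genes that the rule names are not reported here. Members and lists were chosen with earlier results of these data known, and other genes named were chosen after their values were seen. Transcript sequence shared with another gene was counted in 31-base words. Alternatives were library totals, RLE factors, other filters, DESeq2 1.42.0, limma-voom (limma 3.58.1), counts scaled from the deposited TPM, a replicate block, 2 groups of 6 and leaving out each library.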

Additional observations from a re-analysis of the deposited data

Results flagged for a closer look

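Single libraries far from the rest of their group were looked for in 76 groups of 6, in which chance marks about 1 in 20. The number found was about what that share gives, so the cases below cannot be told from chance. Arg1 in metestrus 5 (33 CPM) had a gap to its nearest neighbour of 0.771 of the group's range on the log2 scale, on the side of estrus. Map2 was set apart in proestrus 3 (3.53 CPM, 0.798 of the range) and in metestrus 5 (19.6 CPM, 0.702), the latter on the side of the proestrus and estrus group. Gstm7 in estrus 4 (1.7 CPM, 0.632 of the range) was the fourth, at a level near that of 3 counts. All 3 genes were called with all libraries and in each of the 12 fits that left 1 out.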

How the results depend on the processing

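The 1685 calls (951 higher, 734 lower) became 1052 (560 higher) with a minimum mean of 50 counts, 971 (571 higher, 400 lower) with counts scaled from TPM, and 904 (588 higher, 316 lower) with 2 groups of 6, which leaves the differences between stages in the spread. With the replicate block, whose numbers are shared by only some stages, 419 genes were called (289 higher, 130 lower), so that 69% were higher in place of 56.4%. Same-numbered samples had correlations from -0.153 to 0.191, and differently numbered ones from -0.261 to 0.365. With 3 samples per stage these values cannot show whether the numbers pair the samples. The numbers 1, 2, 6 and 7 each belong to a single library, which the block fits exactly. Under the block the proestrus level thus rests on proestrus 3 alone and the metestrus level on metestrus 5 alone. The block is therefore not a check on all 12 libraries. The 1446 genes with 1 sign became 866, 854, 892 and, with the replicate block, 342, and 121 when each stage pair had to be called. Calls between the stages of a group (1651) became 939 with counts scaled from TPM and 710 with the block. Leaving out 1 library gave 1200 to 1998 calls, 486 to 914 lower, 1042 to 1744 with 1 sign and 869 to 2144 between stages. It gave 531 to 835 genes without overlap against 492, a number that leaving out a library cannot lower. The share of squared distance between the groups was 25.5% over all genes tested against 34.4%. Under the replicate block Col14a1 (0.052), Ccna2 (0.17), Cdc20 (1.02), Bub1 (1.18) and Top2a (1.18) turned positive. The mitosis list summed to 1184 CPM in proestrus 3 and 126 CPM in metestrus 5. The part of these libraries in the changes of sign was not tested. In that fit the mitosis list had 6 higher, the collagen list 2 higher and 0 lower (median 0.38), and the progesterone-responsive, IGF and endothelial lists 8, 0 and 1 lower. Of 129 called genes named by rule, 71 kept their call in each alternative that gave them a value (19 to 21 each) and 11 lost it in 5 or more. At this depth, levels near 3 counts (about 1.6 CPM) limit folds.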

Other observations

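The gene families below were chosen after the calls were seen, so their counts support nothing, and over all genes 7.89% were higher and 6.09% lower. Of 16 tested Hox genes, which pattern the reproductive tract, 5 were lower in proestrus and estrus and 3 higher. The lower ones were Hoxa10, Hoxa11, Hoxd8, Hoxd10 and Hoxd11. Hoxd11 was 35.9 ± 7.9 CPM against 81 ± 23.6 CPM and Hoxd10 was 31.9 ± 5.6 CPM against 58.7 ± 11.1 CPM (SD, n = 6 each, edgeR adjusted p = 0.000175 and 0.000647). The 3 higher ones were all of the HoxB cluster, and Hoxb4 was 24.6 ± 6 CPM against 7.71 ± 1.61 CPM with no overlap (adjusted p = 0.000179). Hoxb3 was not called without estrus 4 (adjusted p = 0.0506), and Hoxb7 was not called in 10 of the 12 leave-one-out fits (up to 0.122, without diestrus 4).

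Of 190 tested solute carrier genes, 25 were higher and 9 lower, against 7.89% and 6.09% of all genes. Slc34a2, a phosphate transporter, was 14.1 ± 9.2 CPM against 1.74 ± 3.45 CPM and Slc5a1, the sodium-glucose transporter, was 14.7 ± 10.5 CPM against 1.42 ± 1.27 CPM (SD, n = 6 each, edgeR adjusted p = 0.00152 and 0.00292). Their log2 differences of 3.64 and 3.03 were 4.84 without metestrus 5 and 2.38 without proestrus 2. All 7 tested Sprr2 genes were higher. Of 16 glutathione S-transferase genes, 6 were lower and 4 higher. Gstm1 was 104 ± 43.8 CPM against 223 ± 62.9 CPM, while Gsto1 was 651 ± 383 CPM against 236 ± 122 CPM (SD, n = 6 each, adjusted p = 0.000362 and 0.00103), so that members of the family were called in opposite directions.

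A set of lower genes held its highest level in metestrus 7. Angptl7, a secreted protein, had 222 CPM there, 4.63 CPM in metestrus 5 and 8.15 CPM in metestrus 6, and its log2 difference of -3.48 was -1.68 without metestrus 7 (adjusted p = 0.0893). Sult1d1, a sulfotransferase, had 513 CPM in metestrus 7 against 33.5 CPM and 46.4 CPM in the other metestrus libraries. Cyp1b1, an enzyme that hydroxylates estradiol, had 41.4 CPM in metestrus 7 and at most 1.54 CPM in the other metestrus libraries, and its adjusted p was 0.0419 with that library and 0.427 without it. Zbtb16, a transcription factor raised by progesterone and glucocorticoids, had 56.2 CPM in metestrus 7, and its log2 difference of -2.72 was -1.73 without it, with the call kept. In metestrus 5 the opposite was seen for Ltf, lactotransferrin, with 1250 CPM against 17.7 to 146 CPM in the other metestrus and diestrus libraries. The log2 difference of Ltf was 2.44, or 3.63 without metestrus 5.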
